A study of Drosophila melanogaster with 2 samples.

Results

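The genes described here make the machinery and the building blocks of DNA replication in the fruit fly, Drosophila melanogaster. They are 10 genes listed by name, out of 18277 annotated genes, of which 13968 code for proteins. The list holds the 6 subunits of the MCM helicase (Mcm2, Mcm3, dpa, Mcm5, Mcm6 and Mcm7), the sliding clamp PCNA, both subunits of ribonucleotide reductase (RnrL and RnrS) and the transcription factor Dp. All of them were found in the annotation. A peak was assigned to a gene when its summit lay within 500 bp of any annotated transcription start site (TSS), which is called the promoter here.

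The peaks come from chromatin immunoprecipitation with sequencing on whole embryos. The embryos were 0 to 24 h old, of both sexes and pooled, and carried a stable transgene for CG13123 with GFP at its C terminus. The labels class the experiment as one on a transcription factor, and the precipitation was directed against GFP. There was 1 group of 2 biological replicates, numbered 2 and 3, so no conditions were compared, and no embryos without the transgene were analysed here. What drives the transgene, and whether untagged CG13123 was also present, is not stated. The peak lists hold no expression values, so the label of embryo could not be checked against markers. A whole embryo mixes many cell types, so a signal from a large share of the cells and a strong signal in a few of them cannot be told apart.

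Each of the 3 relaxed lists, for replicate 2, for replicate 3 and for both together, holds 30000 peaks, background included. A stricter list of 2704 peaks holds those past a threshold on the irreproducible discovery rate (IDR), a measure of how well peaks keep their order between replicates. The peak signal is the authors' own value on a scale that is not given, and ranks count from the highest signal of a list. Signals reached 1992 for both replicates together, 1242 in replicate 2 and 761 in replicate 3, so values were mainly compared between lists by rank. Signal ratios of replicate 2 to replicate 3 are also given, and they include any difference in scale between the lists. The lowest signal in the IDR list was 75.5. Each IDR peak of a listed gene had the same signal and rank there as in the relaxed list of both replicates together. An IDR peak at these genes is therefore not separate from a high signal for both together. It also need not be high in each replicate, as the IDR peak of Mcm5, rank 2384 in both lists, shows with rank 3471 in replicate 3. Read depth is unknown, since the lists carry no counts.

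The MCM complex is a ring of related subunits that is loaded on DNA at origins before S phase and then unwinds the double helix at the fork. PCNA encircles DNA behind the fork and holds the polymerases on it, and ribonucleotide reductase makes the deoxyribonucleotides they use. Dp pairs with E2F proteins, and E2F with Dp drives the transcription of many replication genes before S phase. In the early fly embryo replication first runs on products laid down by the mother, and zygotic control by E2F follows. DREF, which binds the DNA replication-related element (DRE), is the other well-known activator of this gene class, and the PCNA promoter is its classical target in the fly.

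The genes split into 3 classes by their promoter peaks. Of the 10 genes, 5 carried an IDR peak at a promoter (RnrS, dpa, Dp, Mcm2 and Mcm5), 3 had only a weak relaxed peak (RnrL, PCNA and Mcm6), and 2 had none (Mcm3 and Mcm7). Across protein-coding genes 14.3% had an IDR peak at a promoter. Among the 7057 protein-coding genes with a relaxed promoter peak, 28.4% had one, beside 5 of 8 here. No test was made on this difference, since the genes were listed with results of these data known. Genes that share a promoter count the same peak more than once in these shares.

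**Figure D1:**
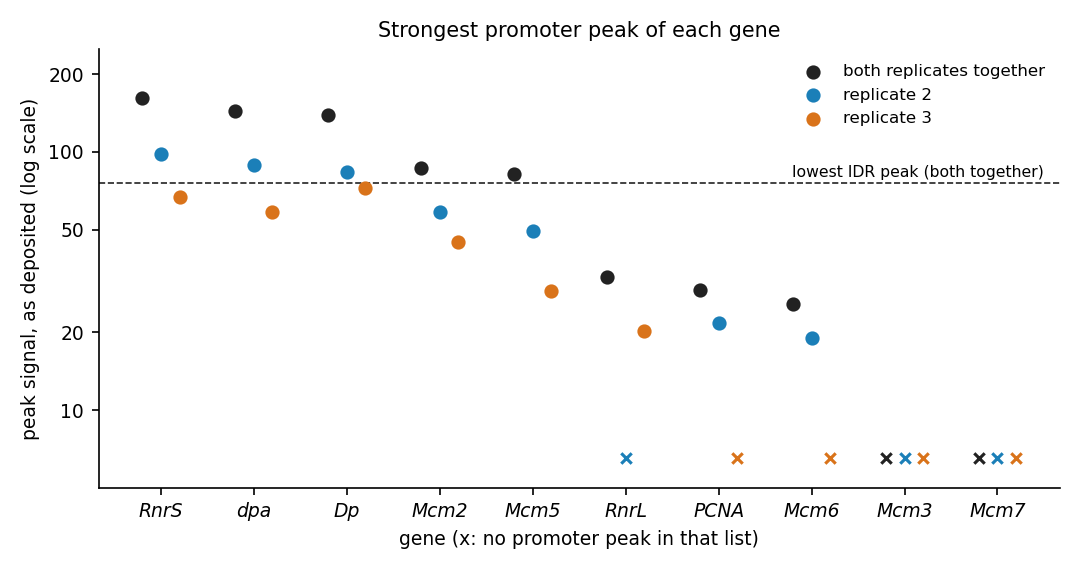
Signal of the strongest promoter peak of each gene (vertical axis, as deposited, log scale) in the relaxed list of both replicates together (black) and of each replicate (blue and orange), with crosses where a list has no promoter peak. The 5 genes on the left lie above the lowest IDR signal of 75.5 for both replicates together, and the next one, RnrL, lies at 32.8.

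A relaxed promoter peak was present at 8 of the 10 genes for both replicates together (50.5% of protein-coding genes), at 7 in replicate 2 (51.1%) and at 6 in replicate 3 (49.5%). It was present in both replicates at 5 of the 10, the same genes that carried an IDR peak, where 40.6% of protein-coding genes had one in both. Of the 2004 protein-coding genes with an IDR promoter peak, 1991 had one in both. Its presence in both at the 5 IDR genes is therefore no separate result. Each replicate's own 2704 highest peaks included a promoter peak of RnrS, dpa, Dp and Mcm2, which is 4 of 10 beside 11.5% of protein-coding genes. Mcm5 was among them in replicate 2 alone. The median signal of the 8 genes with a peak was 84.5, beside 47.2 over the protein-coding genes with a promoter peak. That median leaves out Mcm3 and Mcm7, which have no peak.

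**Figure D2:**
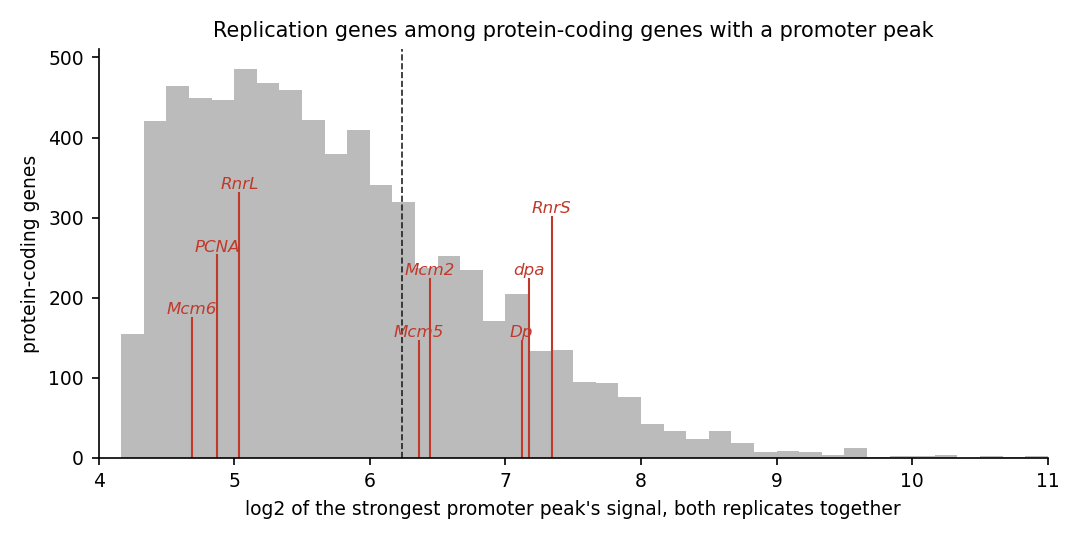
Number of protein-coding genes (vertical axis) by the log2 of the strongest promoter peak's signal for both replicates together, with the 8 replication genes that have a peak in red (line heights carry no value) and the lowest IDR signal dashed. RnrL, PCNA and Mcm6 lie in the lower part of the distribution, and RnrS, dpa and Dp in its upper part.

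Of the helicase subunits, dpa, which encodes the fly Mcm4, had the strongest promoter peak. The gene lies on the minus strand of 2R from 7496702 to 7500145. The signal was 144 for both replicates together (rank 829), 89.4 in replicate 2 (rank 760) and 58.3 in replicate 3 (rank 955). It exceeded the promoter signal of 89.7%, 90.8% and 87.7% of the protein-coding genes with a peak in those lists, so the gene held about the same place in each. The summit lay in the 5' UTR of dpa, between its 2 annotated starts, which are 268 bp apart. The oppositely directed gene didum, which encodes a class V myosin that carries cargo along actin, starts 2 bp from dpa. Its start was 154 bp from the summit, so the peak cannot be assigned to 1 of the pair.

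Mcm2 and Mcm5 stood in the lower part of the IDR list. Mcm2 (plus strand of 3R, 8264970 to 8267924) had a signal of 86.9 for both replicates together (rank 2154 of the 2704 IDR peaks), 58.3 in replicate 2 (rank 1800) and 44.6 in replicate 3 (rank 1609). Mcm5 (plus strand of 3R, 10788524 to 10791150) had 82.1 (rank 2384), 49.4 in replicate 2 (rank 2409) and 28.9 in replicate 3 (rank 3471). Mcm2 exceeded 76.2% of protein-coding genes with a promoter peak, and Mcm5 exceeded 74.6%. Their −log10 q-values for both replicates together were 3.68, the highest of that list, as for every IDR promoter peak of a listed gene. Mcm5 had 2.19 in replicate 3.

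Both summits lay between divergent genes. The Mcm2 summit was intergenic, 89 bp upstream of Mcm2 and 430 bp from RPA1, the gene of the large subunit of replication protein A, which covers single-stranded DNA at the fork. The starts of Mcm2 and RPA1 are 519 bp apart, so 2 replication genes share this peak. The Mcm5 summit was 111 bp from the start of Art1, a protein arginine methyltransferase, and 187 bp from that of Mcm5, with 298 bp between the 2 starts. A weaker peak for both replicates together lay 15 bp inside Mcm5 (signal 27.4, rank 16179).

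The sequences below are the 200 bases directly upstream of the start on the strand of the gene, shown because they hold the intergenic summits of Mcm2 and Mcm5 and the matching stretches of Mcm3 and Mcm7, which had no promoter peak. Bases are from the RefSeq copy of the Release 6 genome (dm6). Capitals mark matches, on either strand, to the words described further on: the TATA word, ACAGTG, and the core promoter elements motif 7 and motif 1. The stretch of Mcm5 holds no whole match, since its motif 7 begins 3 bp upstream of the start and runs past it.
Mcm2 (chr3R:8264770-8264969, plus strand): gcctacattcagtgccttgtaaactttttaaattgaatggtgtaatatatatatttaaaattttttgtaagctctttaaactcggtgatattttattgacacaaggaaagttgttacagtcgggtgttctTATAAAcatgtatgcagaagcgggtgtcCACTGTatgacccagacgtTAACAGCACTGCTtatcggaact
Mcm5 (chr3R:10788324-10788523, plus strand): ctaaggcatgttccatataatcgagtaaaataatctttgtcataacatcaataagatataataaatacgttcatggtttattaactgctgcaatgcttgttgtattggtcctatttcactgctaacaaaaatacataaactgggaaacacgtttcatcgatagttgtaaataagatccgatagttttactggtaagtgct
Mcm3 (chrX:5323655-5323854, plus strand): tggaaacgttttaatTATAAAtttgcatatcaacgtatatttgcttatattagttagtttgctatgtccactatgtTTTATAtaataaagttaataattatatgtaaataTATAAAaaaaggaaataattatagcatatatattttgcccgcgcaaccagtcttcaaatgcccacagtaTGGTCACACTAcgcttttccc
Mcm7 (chr3L:8891396-8891595, plus strand): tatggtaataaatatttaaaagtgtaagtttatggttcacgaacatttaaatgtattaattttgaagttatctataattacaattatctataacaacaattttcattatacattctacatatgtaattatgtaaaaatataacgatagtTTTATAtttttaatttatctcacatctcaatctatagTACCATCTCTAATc

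In the stretch of Mcm2 the capitals are, from left to right, a TATA word 70 bp upstream of the start, ACAGTG read on the other strand 42 bp upstream, and motif 7 from 23 bp upstream. In the stretch of Mcm3 they are 3 TATA words and motif 1, the element bound by M1BP, 21 bp upstream. In that of Mcm7 they are a TATA word 51 bp and motif 7 14 bp upstream. Motif 7 was thus present at Mcm2, which had an IDR peak, and at Mcm7, which had no peak in any list.

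Mcm6, Mcm3 and Mcm7 carried little or no promoter signal. Mcm6 (plus strand of X, 6674387 to 6677176) had a summit 57 bp upstream with a signal of 25.8 (rank 18220) for both replicates together and 19.0 (rank 15220) in replicate 2, and none in replicate 3. Its −log10 q-values were 0.32 and 0.49, and 15.4% of protein-coding genes with a promoter peak had a lower signal. That summit lay 357 bp from CG3198, a divergent gene. The nearest IDR summit was 4961 bp downstream, where the start of ND-ASHI, which encodes a subunit of respiratory complex I, was the nearest one.

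Mcm3 (plus strand of X, 5323855 to 5326738) had no promoter peak in any list. The nearest summit for both replicates together was 1140 bp upstream, with a signal of 84.5 (rank 2261), and it belongs to the IDR list. It lay 19 bp from the start of Rnp4F, which encodes an RNA-binding protein of spliceosome assembly. The same site had 56.3 in replicate 2 and 27.8 in replicate 3. Mcm7 (plus strand of 3L, 8891596 to 8894310) had none either. For both replicates together the nearest summit was 6546 bp upstream, in an intron of dally, at rank 25847. In replicate 2 a summit of 14.04 (rank 26343) lay 664 bp upstream and in replicate 3 one of 12.1 (rank 19557) lay 709 bp upstream, both in the 3' UTR of dally, a cell-surface proteoglycan gene. These distances are the nearest to the limit of 500 bp on its outer side, and the nearest on its inner side for a strongest peak was the 432 bp of Dp. The 6 subunits form 1 complex, and their promoters ranged from rank 829 to no peak.

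The promoter of PCNA (minus strand of 2R, 20261754 to 20262883) had a weak peak. Its summit, 34 bp upstream of the first start, had a signal of 29.3 (rank 14119) for both replicates together, with a −log10 q-value of 0.43. Replicate 2 had 21.7 (rank 11593) 4 bp upstream. Replicate 3 had no promoter peak, and its nearest summit was in the 3' UTR of PCNA with a signal of 11.2 (rank 22822). The IDR peak next to the gene lay 1112 bp upstream, 16 bp from the start of the ribosomal protein gene RpS18. Its summit was also within 500 bp of plu, a regulator of S phase in the early embryo. That peak had a signal of 107 for both replicates together (rank 1500), 72.2 in replicate 2 (rank 1162) and 35.8 in replicate 3 (rank 2404). The neighbour's peak thus ranked above that of PCNA in both lists where PCNA had one.

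The subunits of ribonucleotide reductase differed. RnrS, the small subunit (minus strand of 2R, 11983145 to 11985393), had the strongest promoter peak of the 10 genes for both replicates together and in replicate 2, and in replicate 3 that of Dp was stronger (72.3 beside 67.2). Its signal was 162 for both replicates together (rank 663), 98.4 in replicate 2 (rank 624) and 67.2 in replicate 3 (rank 695). It exceeded 91.6%, 92.3% and 90.8% of protein-coding genes with a promoter peak in those lists. The summit was intergenic, 167 bp upstream of RnrS and 448 bp from the divergent gene CG34231, whose start is 615 bp from that of RnrS. RnrL, the large subunit (minus strand of 2L, 10325026 to 10327943), had a summit 50 bp upstream with 32.8 (rank 11295) and a −log10 q-value of 0.56. It had 20.3 (rank 6406) in replicate 3. Replicate 2 had no promoter peak there, and its nearest summit was in the coding sequence of RnrL, 887 bp downstream, at rank 26440. The nearest IDR summit was 7185 bp from RnrL, in an intron of GATAd.

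Dp (plus strand of 2R, 13222433 to 13228202) had the most promoter peaks, over a longer searched stretch than the 7 listed single-start genes. It has 3 annotated starts, the later ones 1158 and 2889 bp behind the first, and 4 relaxed peaks for both replicates together were within 500 bp of one of them. Of these, 3 were in the IDR list. The first lay 77 bp upstream of the first start and 18 bp from the start of Fsn, in the 5' UTR of Fsn, a divergent gene for an F-box protein of synapses. The starts of Fsn and Dp are 26 bp apart. The other peaks lay in introns of Dp, 1 of them 229 bp upstream and 1 of them 432 bp downstream of the second start. The last of these was also within 500 bp of lncRNA:CR43918, a noncoding gene inside Dp on the other strand.

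The order of the Dp peaks differed between replicates. At the Fsn and Dp starts the signal was 98.9 (rank 1712) for both replicates together, 83.4 (rank 874) in replicate 2 and 19.1 (rank 7255) in replicate 3. This was the strongest of the Dp peaks in replicate 2 and the weakest in replicate 3. The peak upstream of the second start had 127 for both together, 67.9 in replicate 2 (rank 1312) and 58.5 in replicate 3 (rank 944). The peak downstream of it had 139, 63.7 (rank 1511) and 72.3 (rank 581). These intronic peaks were among the 2704 highest in each replicate, and the one at the shared start was so in replicate 2 alone. The ratio of replicate 2 to replicate 3 was 4.36 at the shared start, 1.16 and 0.88 at the intronic peaks and 1.29 at the weakest peak (signal 49.0). Another ratio, of each replicate's strongest promoter peak whether or not at the same site, was taken over protein-coding genes. For the 1991 with an IDR promoter peak and a promoter peak in both replicates, its median was 1.39, with quartiles of 1.17 and 1.68. On that measure Dp had 1.15. Ratios at matched sites were not taken over other genes.

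**Figure D3:**
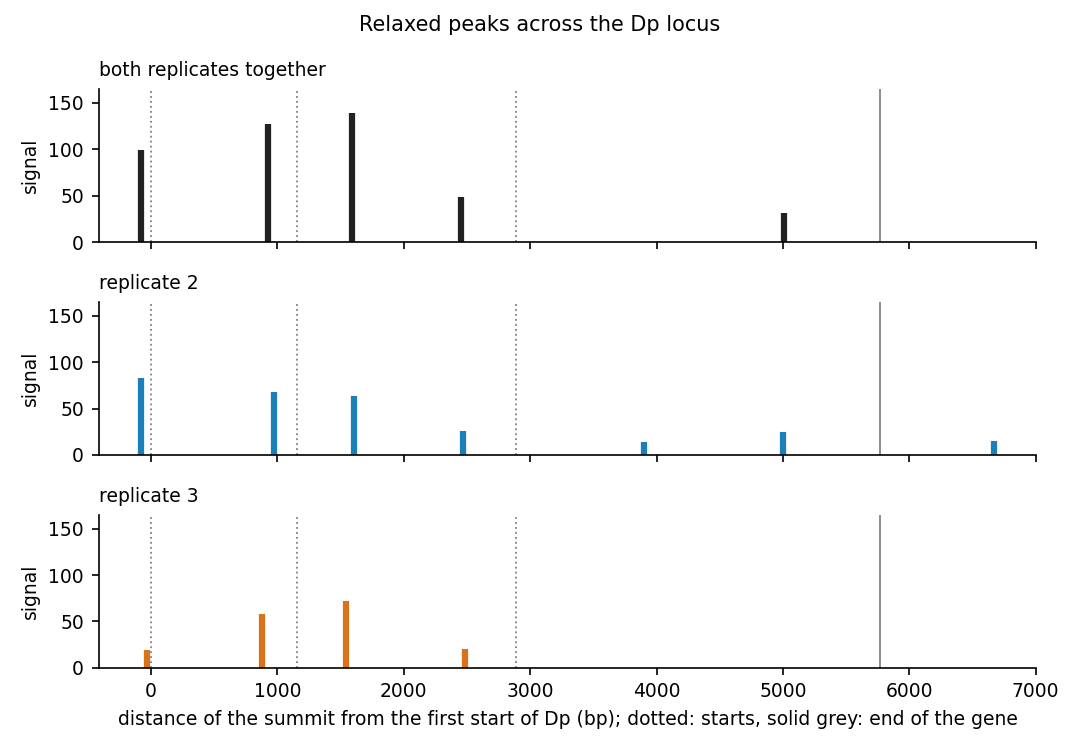
Signal of each relaxed peak (vertical axis, as deposited) by the distance of its summit from the first start of Dp in bp, for both replicates together, replicate 2 and replicate 3, with the starts dotted and the end of the gene in solid grey. The peak at the first start reaches 83.4 in replicate 2 and 19.1 in replicate 3, while the 2 intronic peaks next to it lie between 58.5 and 72.3 in both.

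The strongest promoter summits of the replicates lay from 54 to 1617 bp apart at the 5 genes with an IDR peak. The distance was 54 bp at Mcm5, 95 bp at dpa, 115 bp at RnrS and 161 bp at Mcm2. At Dp it was 1617 bp, since different peaks were the strongest. The median of the 5 genes was 115 bp, and 2 of them lay within 100 bp. For the 1991 protein-coding genes with an IDR promoter peak the median was 30 bp, and 88.0% lay within 100 bp. The difference was not tested. When instead the nearest pair of promoter summits was taken, the distances ran from 14 bp at Dp to 95 bp at dpa, although the nearest peak at Mcm2 in replicate 3 had a signal of 10.5 and that at RnrS in replicate 2 had 14.1. The signal ratios of replicate 2 to replicate 3 for the strongest peaks were 1.15 at Dp, 1.31 at Mcm2, 1.47 at RnrS, 1.53 at dpa and 1.71 at Mcm5, of which those of Mcm2, RnrS and dpa lay within the quartiles given above.

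**Figure D4:**
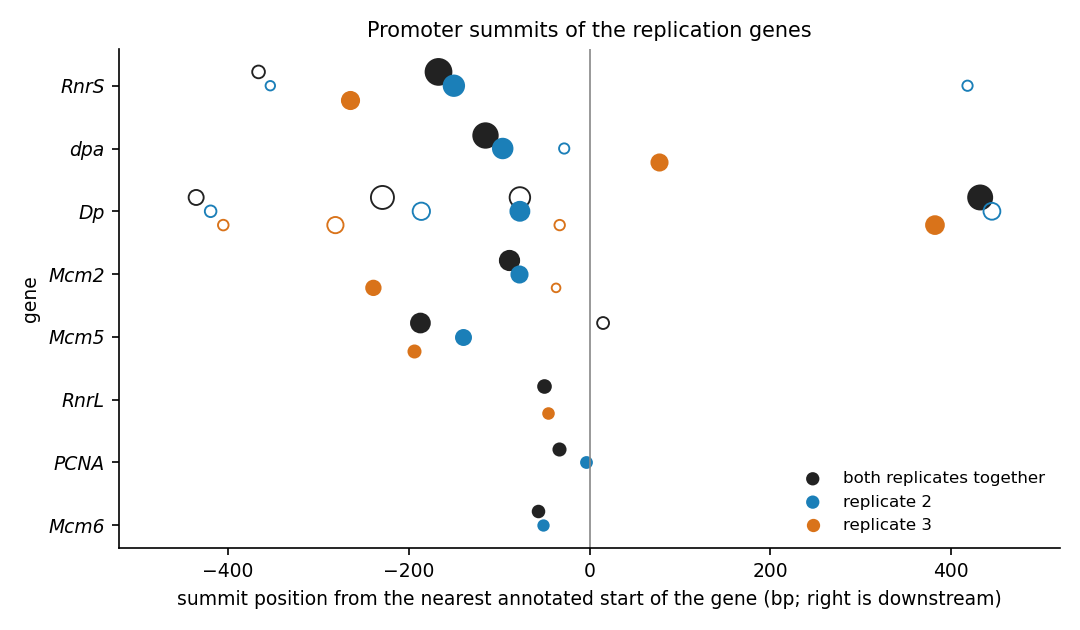
Position of every promoter summit from the nearest annotated start of its gene in bp (horizontal axis, right is downstream) for the 8 genes with a peak, by list, with circle area growing with the signal and filled circles for the strongest peak of a list. In replicate 3 the strongest summits of RnrS and Mcm2 lie 265 and 239 bp upstream, and in replicate 2 they lie 150 and 78 bp upstream.

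All 5 genes with an IDR peak shared their strongest one with another gene whose start lay within 500 bp of the summit. Among the 2004 protein-coding genes with an IDR promoter peak, 66.1% did so. The partners were didum, Art1, RPA1 and CG34231, which are divergent protein-coding genes, and lncRNA:CR43918 for the strongest Dp peak. RnrL and PCNA, with weak peaks, shared theirs with no other gene, and Mcm6 shared its weak peak with CG3198.

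The words that E2F and DREF bind were looked for in the stretch from 250 bases before to 50 bases after each gene's first start, on both strands. The words were TATCGATA for the DRE and TTTCGCGC, TTTGGCGC, TTTCCCGC and TTTGCCGC for E2F, and matches of different words were counted separately. An E2F word was present at 6 of the 10 genes (Mcm2, Mcm3, Mcm5, Mcm6, RnrL and RnrS), beside 6.43% of 13945 promoters of protein-coding genes. The DRE was present at PCNA alone, beside 9.36% of promoters. There it began 27 bp upstream of the first annotated start and 100 bp upstream of the second. A match is a description of the letters and does not show that a factor binds.

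The E2F words occurred at genes with and without a promoter peak. They were present at Mcm3, which had no promoter peak, at the weakly marked Mcm6 and RnrL, and at the IDR genes Mcm2, Mcm5 and RnrS. The genes dpa and Dp, also with IDR peaks, had none in this window. Their strongest summits for both replicates together lay nearest a later start, and the stretches at later starts were not searched. Each word lay close to the start: 6 bp upstream at Mcm3, 2 and 33 bp downstream at RnrL, 13 bp downstream at Mcm6, 32 bp at Mcm5 and 36 bp at Mcm2. At RnrS the words lay 37 and 54 bp upstream, on opposite strands. The sites of RnrS are not printed. The sites of 30 bases that follow are shown because they let the words be compared between other genes with and without a peak. They are on the strand of the gene from the RefSeq copy of the Release 6 genome (dm6), with the word in capitals.
Mcm2 (chr3R:8264995-8265024, plus strand): ttagcaaacatTTTCCCGCgcattttcgca
Mcm3 (chrX:5323838-5323867, plus strand): cacactacgctTTTCCCGCgaaaaaacttt
Mcm5 (chr3R:10788545-10788574, plus strand): cggtaattttgGCGGCAAAatattcgcaca
Mcm6 (chrX:6674389-6674418, plus strand): gtcagaaaaagGCGCCAAAaccgagcaaag
RnrL (chr2L:10327923-10327952, minus strand): aatgactttaaTTTGGCGCctttttgtgct
RnrL (chr2L:10327892-10327921, minus strand): gcaacaatcaaTTTGCCGCctcttgtgaaa

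The words of Mcm2 and Mcm3 are the same, and the words of Mcm5 and Mcm6 stand on the other strand, so the capitals there are their reverse complements. In windows of 100 bp to each side of the strongest summit for both replicates together, an E2F word was present at 3 of the 8 genes with a peak (dpa, Mcm6 and RnrL) and the DRE at PCNA. Of 5506 such promoter summits of protein-coding genes, 4.07% held an E2F word and 7.32% the DRE. The summit windows of Mcm2, Mcm5, RnrS and Dp, which carried IDR peaks, held neither.

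The remaining words are general promoter words and those of other factors. The TATA word TATAAA was found in the promoter stretch of 7 of the 10 genes (45.8% of promoters), motif 7 at Mcm2, Mcm5, Mcm7 and PCNA (9.29%), motif 1 at Mcm3 (4.50%), the E-box CAGCTG at Mcm6 and Dp (17.7%), and ACAGTG at Mcm2 and Dp (13.9%). ACAGTG can be part of a match of motif 7. Median GC content of the summit windows was 35.3% for the 8 genes and 36.8% for all 5506 summits.

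Other genes of DNA replication and its control were counted in the same way. The list of 65 symbols gave 64 genes. Of these, 50 had a relaxed promoter peak, which is 78.1% beside 50.5% of protein-coding genes. An IDR peak was present at 13, which is 20.3% of the genes beside 14.3%. Of the genes with a relaxed peak 26.0% had an IDR peak, near the 28.4% of protein-coding genes. No test was made on these differences. Dref itself was the strongest, with 396 (rank 82), at a peak shared with the ribosomal protein gene RpL13. PolD2, a subunit of polymerase delta, had 286 (rank 174) at a start region shared with CG13933, with 117 in replicate 3 and no promoter peak in replicate 2.

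Among the genes of nucleotide supply, dUTPase, which keeps uracil out of DNA, had 171 (rank 586), with 88.6 in replicate 2 and 79.6 in replicate 3. The clamp loader gene CG8142 had 170, and PCNA2, a relative of PCNA, had 121, beside the 29.3 of PCNA. Rbf2, a retinoblastoma family protein that acts with E2F and Dp, had 150. Top2, the topoisomerase that untangles replicated DNA, had 109, and chif, the activator of the Cdc7 kinase, had 105. Prim1, the catalytic primase subunit, had 101, dup, the licensing factor Cdt1, had 88.2, and Claspin, of the fork checkpoint, had 85.5. RPA1 had the peak it shares with Mcm2. The peaks of dUTPase, CG8142, PCNA2, Rbf2, Prim1 and dup were also shared, in that order with Art8, Ucp4A, CG10366, CG32856, CG7083 and SRPK. The summit counted for Prim1 lay 424 bp from its start. The peaks of Top2, chif and Claspin were shared with no other gene, and neither was that of PCNA. The lowest of the 13, PolA1 with 76.3, and E2f1, the partner of Dp, with 75.02 just under the lowest IDR signal, are named after their values were seen.

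The groups by role are small, and at a background of 14.3% a count of 0 in a group of 6 or fewer genes is no result about that group. The origin recognition complex had no IDR promoter peak (0 of 6 genes) and 3 relaxed ones, near the background of 50.5%. The cell cycle genes CycE, Cdk2, dap and stg had none either (0 of 4). Named after their values were seen, the relaxed peaks of Orc1, Orc2 and Orc3 had signals of 24.6, 21.2 and 26.7 for both replicates together. All were below the 29.3 of PCNA in that list. In replicate 2 Orc3 had 27.2, above the 21.7 of PCNA, while Orc1 and Orc2 had 16.5 and 16.6. In replicate 3, where PCNA had no promoter peak, Orc3 had 19.95, Orc1 had 10.9 and Orc2 had none. All 4 cell cycle genes had a relaxed promoter peak for both replicates together. The signals were 63.2 at dap, 63.0 at Cdk2, 54.1 at stg and 31.0 at CycE, which had no promoter peak in replicate 2. Of the polymerase genes 3 of 11 had an IDR peak, of the clamp, clamp loader and ligation genes 2 of 8, and of the regulators around E2F, Rb, Myb and DREF 2 of 9.

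**Figure D5:**
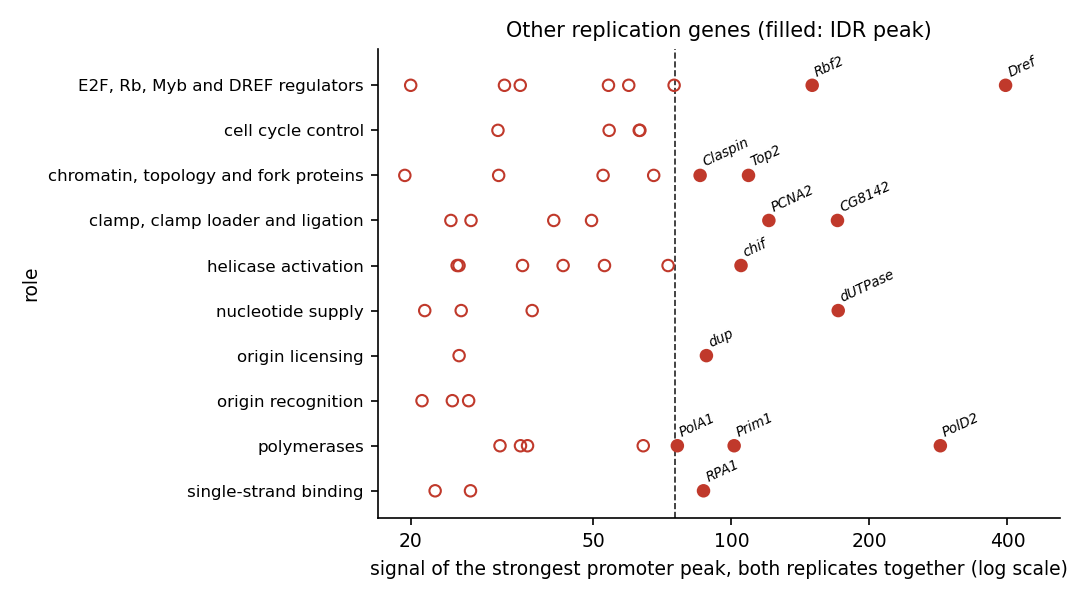
Signal of the strongest promoter peak for both replicates together (horizontal axis, log scale) of the 50 other replication genes that have one, by role, with filled circles for IDR peaks and the lowest IDR signal dashed. Dref at 396 and PolD2 at 286 lie farthest to the right, and the origin recognition genes lie at 21.2 to 26.7.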

How the data were processed

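Peak lists of chromatin immunoprecipitation were used as deposited, on build dm6. Per the labels, the authors called peaks in each replicate and in both together, with a control, and then applied IDR. Not given in the sources used here: which aligner and caller were run, the threshold on IDR, the scale of the signal and the read depth. The authors deposited for each peak a signal value and a −log10 q-value, and the signal was used to rank peaks within a list. The dm3 lists were not used.

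Genes and starts came from Ensembl release 115, without transposable elements, and bases from the RefSeq copy of Release 6, with Python 3.11.15 and pandas 2.3.3. Summits were read as the interval's start plus the summit offset. The functions were tested on simulated data. No test was run: the comparisons are counts, ranks and levels beside those of all protein-coding genes. The genes, the other replication genes, the words and the rule for named genes (every listed gene, those sharing its peak, and up to 12 others with an IDR peak) were chosen with earlier results of these data known. Of the 65 other symbols, 4 were matched through older names, and RPA1 was listed under both of its names. Alternatives were other TSS windows, the first start only, a stricter IDR list, each replicate's own list, other distances between summits, and summit windows for words. The replicates are labelled as biological replicates with separate biosamples of the same fly line, and counting intervals could not be given without read counts.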

Additional observations from a re-analysis of the deposited data

How the results depend on the processing

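The count of genes with an IDR promoter peak was 5 of 10 with TSS windows of 200 and 1000 bp and with the first start only, and the same 5 genes were counted. It was 3 (dpa, RnrS and Dp) in the 1352 IDR peaks of highest signal, and 4 to 5 from 1 replicate's own highest peaks, since Mcm5 was not among those of replicate 3. In those 1352 peaks, 6 in place of 13 other replication genes were counted. A promoter peak in both replicates was present at 8 genes with a window of 1000 bp and at 2 with summits within 50 bp. The genes added at 1000 bp were Mcm7, PCNA and RnrL. They were added through the weak summits described above, in the 3' UTRs of dally and PCNA and the coding sequence of RnrL. The share of all protein-coding genes was not counted for the 1352 peaks, the other TSS windows or the limit of 50 bp. Whether the listed genes moved more than others there is therefore not shown. With a window of 200 bp, 1 gene in place of 4 was among the highest peaks of both replicates, since the summits of Mcm2 and RnrS in replicate 3 lay 239 and 265 bp upstream, and no Dp summit that high in replicate 3 lay inside it. The median signal was 58.3 over 7 genes in replicate 2 and 51.5 over 6 genes in replicate 3. The medians over protein-coding genes with a promoter peak were also lower there, 30.1 and 21.4 beside 47.2 for both together. The nearest pairs of summits had a median distance of 54.0 bp. A DRE or E2F word was present at 4 genes in summit windows in place of 7 in promoters. For the other values the cause was not tested. The other counts under the alternatives were within 1.5 times the reported ones. For the 8 listed genes with a promoter peak, every signal was lower in a replicate's own list than for both together. No paired analysis was possible because there was 1 group. With 2 replicates, unknown depth and no sample without the tagged protein, differences between genes with weak peaks cannot be resolved.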
